A study of Homo sapiens with 4 samples.

Results

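The metallothioneins of chromosome 16q13 and their regulator MTF1 were followed by gene name through RNA-seq libraries of 2 anaplastic thyroid cancer (ATC) cell lines. There were 10 members among 26485 gene names: MT1A, MT1E, MT1F, MT1G, MT1H, MT1L, MT1M, MT1X and MT2A, which lie within 75.6 kb on chromosome 16, and MTF1 on chromosome 1. The lines were SW1736 and 8505C, both established from human ATC and grown in RPMI-1640 medium with serum. The wild-type cells (wt) were sensitive to paclitaxel, a taxane that stabilizes microtubules. The resistant cells (SW1736-PTX and 8505C-PTX) came from 6 months of selection with paclitaxel raised from 1 nM to 1.5 µM, and were kept at 1.5 µM. Each condition was sequenced as 1 library, 4 in all, so the spread between cultures is unknown and no difference below has a replicate check. Because the PTX cells were grown in the drug, acquired resistance and ongoing exposure cannot be told apart. The sources used here do not say whether a PTX line is a clone or a pool.

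Metallothioneins are short, cysteine-rich proteins that bind zinc, copper and cadmium in metal-thiolate clusters, buffering free zinc and protecting cells from toxic metals and oxidants. MTF1 is a zinc-finger factor that senses rising zinc and binds metal response elements (MREs) upstream of these genes. Glucocorticoids and cytokines also induce MT2A. In thyroid carcinoma the family is best known through MT1G, which has been described as silenced by promoter methylation.

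RefSeq promoters (GRCh38.p14, from 250 bases before to 50 after the gene's start) were held for 4 of the 10 members: MT2A, MT1X, MT1H and MTF1. MT2A and MT1X are shown because they carried most of the metallothionein mRNA, and MT1H because it was listed at 0 in every library. MRE cores, TGCACNC or TGCGCNC on either strand, are in capitals, and the sequences run 5′ to 3′ along the plus strand.
MT2A, chr16:56608334-56608633: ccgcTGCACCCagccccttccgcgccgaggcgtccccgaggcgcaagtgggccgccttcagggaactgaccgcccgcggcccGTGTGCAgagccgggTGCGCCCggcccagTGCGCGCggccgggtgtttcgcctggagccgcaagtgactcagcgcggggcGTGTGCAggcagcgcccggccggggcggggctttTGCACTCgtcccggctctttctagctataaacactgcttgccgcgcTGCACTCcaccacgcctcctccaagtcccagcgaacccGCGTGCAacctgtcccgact
MT1X, chr16:56682220-56682519: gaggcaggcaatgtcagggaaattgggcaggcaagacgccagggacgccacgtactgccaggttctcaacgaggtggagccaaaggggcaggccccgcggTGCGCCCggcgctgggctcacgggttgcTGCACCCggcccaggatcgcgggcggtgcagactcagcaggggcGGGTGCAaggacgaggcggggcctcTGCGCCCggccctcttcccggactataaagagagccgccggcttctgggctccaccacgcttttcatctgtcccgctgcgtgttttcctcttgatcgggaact
MT1H, chr16:56669564-56669863: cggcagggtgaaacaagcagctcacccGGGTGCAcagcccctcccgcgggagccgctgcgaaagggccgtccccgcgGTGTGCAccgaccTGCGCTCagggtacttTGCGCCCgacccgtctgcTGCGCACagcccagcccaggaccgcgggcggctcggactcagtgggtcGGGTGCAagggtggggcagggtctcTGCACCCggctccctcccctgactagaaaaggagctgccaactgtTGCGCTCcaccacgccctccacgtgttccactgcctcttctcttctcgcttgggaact

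The MT2A window held 8 MRE cores, the MT1H window also 8 and the MT1X window 4. Of 35116 promoters of 300 bases, 29.6% held at least 1 such core, 0.0199% at least 8 and 0.601% at least 4. With the first transcribed base as 0, a core began at -53 in MT1X and MT1H and at -54 in MT2A, and a core on the other strand began at -78 in MT1X and MT1H. The letters TATAAA, searched on both strands and found in 11.5% of promoters, were present once in MT2A (at -29) and once in MT1X (at -30), and were not in the MT1H window. The MTF1 window held neither motif. The number of cores did not separate MT2A, the most abundant member, from MT1H, listed at 0 throughout. MT1X, expressed in every library, had fewer than MT1H. MT1B and MT4, outside the members and listed at 0, had 3 each. With promoters of only 4 of 10 members, a relation of core number to expression was not tested.

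**Figure D1:**
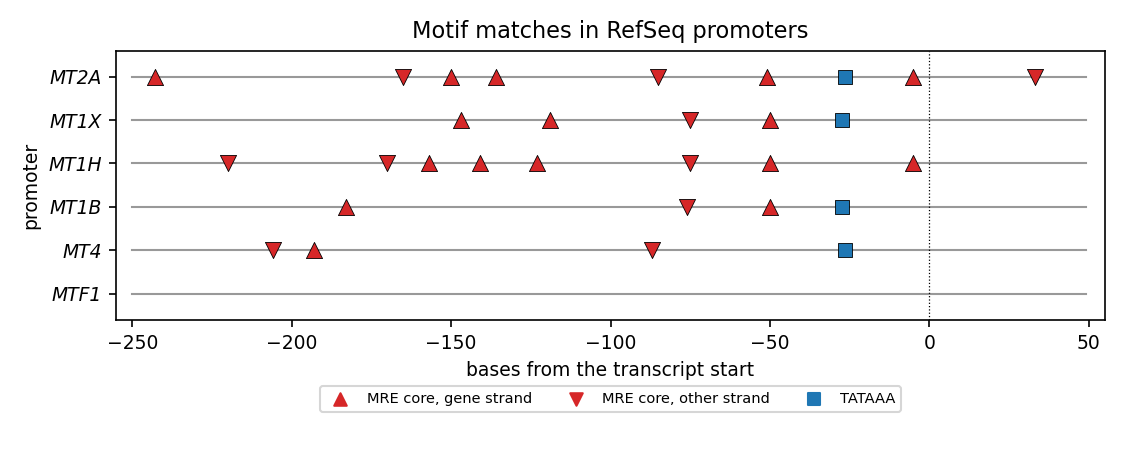
Positions of MRE cores (red triangles, pointing up on the gene's strand and down on the other) and of TATAAA (blue squares) in RefSeq promoters of metallothioneins and MTF1, in bases from the transcript start. MT2A and MT1H hold 8 cores each, MT1X 4, and MT1B and MT4, which were listed at 0 in all libraries, 3 each; MTF1 holds none.

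Depth, estimated from the ratio of coverage to FPKM, lay between 43.5 and 57.9 M aligned reads and was greater for PTX than for wt cells in each line. Calls required that the FPKM (fragments per kilobase of transcript, scaled to the aligned total) exceed 0.5 in 1 or both libraries compared, with log2((PTX + 0.1)/(wt + 0.1)) beyond 1.5. Of 15 genes that every cell uses, 0 were listed at 0 in any library. Thyroid identity was checked with marker genes. TSHR and SLC5A5 were listed at 0 in all libraries and TG, the thyroglobulin precursor of thyroid hormone, was at most 0.00586 FPKM, so these products of differentiated thyroid cells were absent or nearly so. Thyroid transcription factors divided the libraries differently from the labels. PAX8 had 38.2 FPKM in SW1736 wt, beside 0.206, 0.123 and 0.146 FPKM in SW1736-PTX, 8505C wt and 8505C-PTX. FOXE1 had 26.6 FPKM in SW1736 wt and at most 0.511 in the other libraries, whereas NKX2-1 was listed at 0 in SW1736 wt and lay between 30.5 and 39.0 FPKM elsewhere. Across 14692 genes, which are not independent replicates, Pearson's r of SW1736-PTX was 0.767 with its own wt library, 0.873 with 8505C wt and 0.933 with 8505C-PTX, the highest of all pairs, while that between the wt libraries was 0.845. SW1736-PTX was thus closer to both 8505C libraries than to its own wt library, which bears on every statement below that the PTX libraries, or the lines, behaved alike. Markers of other cells were summed over each list. Epithelial markers (6 genes, 2 to 4 of them above 0.5 FPKM in a library) summed to between 854 (SW1736 wt) and 2415 FPKM (SW1736-PTX), and mesenchymal markers (5 of 5 in each library) to between 1711 FPKM in 8505C wt and 5058 in SW1736 wt. Of 6 blood and endothelial markers only CD68 was above 0.5 FPKM, with sums from 6.01 in SW1736 wt to 43.4 in 8505C-PTX. The part of these differences in the results below was not tested. Fewer cells of a type and less RNA per cell cannot be told apart in such libraries. The labels were used as given and were not checked by genotype, and the SW1736 results on members and gene lists are also given with 8505C wt as the control.

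Of the 10 members, 7 could be compared in SW1736, of which 5 were called lower in SW1736-PTX (MT1E, MT1F, MT1L, MT1M and MT2A) and 0 higher. Over all 14202 genes compared in SW1736, 10.2% were called lower and 15.7% higher. In 8505C, 4 members could be compared. MT1X was called higher and MT1A lower in 8505C-PTX, against 15% called higher and 5.89% called lower over all 13794 genes. MT1G and MT1H were listed at 0 in all 4 libraries. With 8505C wt as the control of SW1736-PTX, MT1E and MT1X were called higher and MT1A lower, where 15.1% and 5.23% of 13824 genes were called higher and lower, so the fall of 5 members rested on the SW1736 wt library. Members that passed the FPKM limit through their level in 1 library only had to differ, and this was so for MT1F, MT1L and MT1M in SW1736 and MT1A in 8505C. It was also so for MT1E and MT1A with 8505C wt as the control of SW1736-PTX.

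**Figure D2:**
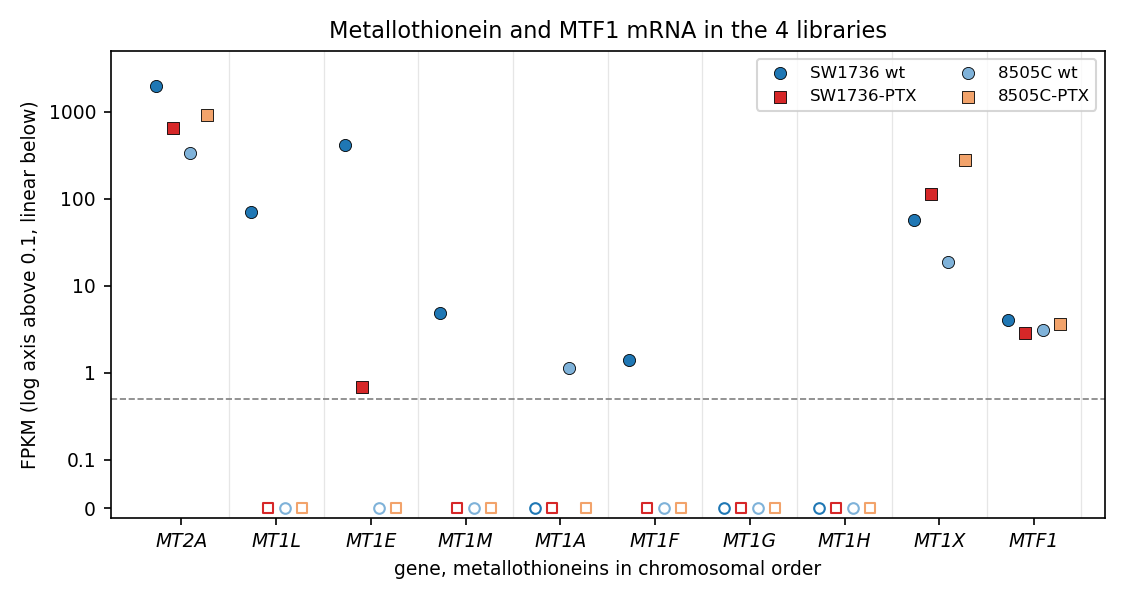
FPKM of each member in the 4 libraries, with wt cells as circles and PTX cells as squares and values of 0 as open symbols on the baseline. The vertical axis is logarithmic above 0.1 and linear below, and the dashed line marks 0.5 FPKM. MT1L, MT1M and MT1F were above 0 in SW1736 wt alone, while MT2A and MT1X were expressed in every library.

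MT2A (chromosome 16, 56608566 to 56609497 on hg38, plus strand, 3 exons, transcript of 401 bases) encodes the main inducible metallothionein of most human tissues. SW1736 wt cells held 1957 FPKM of it, SW1736-PTX cells 653, 8505C wt cells 331 and 8505C-PTX cells 904. The level in SW1736 wt was the highest and that in 8505C wt the lowest, with both PTX libraries between them. MT2A ranked 7 by FPKM among all gene names in SW1736 wt, and 101, 167 and 79 in SW1736-PTX, 8505C wt and 8505C-PTX. In SW1736-PTX it was 3.00-fold lower than in SW1736 wt, with a 95% exact counting interval of 2.94 to 3.05, a log2 fold change of -1.58 that passed the limit. In 8505C-PTX it was 2.73-fold higher than in 8505C wt (2.65 to 2.81), a log2 fold change of 1.45 that did not pass it. The changes thus had opposite signs in the lines, and a difference of this kind could not be tested with 1 library per condition. Against 8505C wt, SW1736-PTX was 1.97-fold higher (1.91 to 2.03). These intervals, here and below, come from estimated reads and cover counting error only.

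MT1X (56682470 to 56684196, plus strand, 3 exons, 404 bases), at the other end of the cluster, encodes a metallothionein of the MT1 group. The wt libraries held 57.2 FPKM (SW1736) and 18.7 FPKM (8505C), and the PTX libraries 113 and 276. Both PTX libraries were above both wt libraries, a separation that MT2A did not show. For this order, here and below, the share over all genes was not counted, and the PTX libraries had the highest r of all pairs. MT1X rose 14.7-fold in 8505C (13.1 to 16.5), a log2 fold change of 3.87. In SW1736 the PTX value was 1.98-fold the wt value (1.84 to 2.12), a log2 fold change of 0.98 that was not called. Against 8505C wt, MT1X in SW1736-PTX was 6.04-fold higher (5.38 to 6.78) and was called.

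MT1X was also set against MT2A, a measure chosen after the values were seen, and it shifted the same way in each line. Per 100 FPKM of MT2A, SW1736 wt held 2.92 FPKM of MT1X (2.75 to 3.10) and SW1736-PTX held 17.3 (16.6 to 18.1). In 8505C the same measure was 5.66 in wt (5.06 to 6.33) and 30.5 in PTX cells (29.6 to 31.4). MT1X relative to MT2A was thus 5.93-fold higher in SW1736-PTX than in SW1736 wt (5.51 to 6.37) and 5.39-fold higher in 8505C-PTX than in 8505C wt (4.80 to 6.04), although the changes of MT2A itself had opposite signs. With 8505C wt as the control, the value for SW1736-PTX was 3.06-fold (2.72 to 3.45). A ratio within a library does not depend on its depth or on FPKM against TPM, and it shows unequal change of the genes, not which of them changed.

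**Figure D3:**
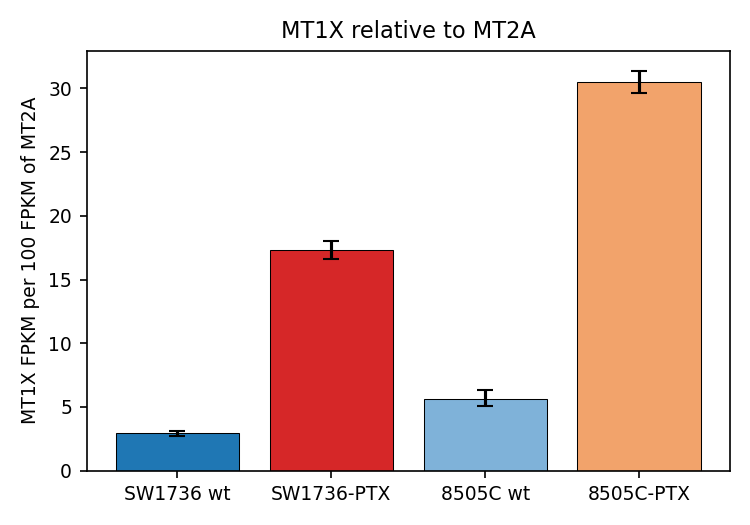
MT1X FPKM per 100 FPKM of MT2A, a ratio chosen after the values were seen, in each library, 1 library per bar, with 95% counting intervals as error bars. The wt libraries stand at 2.92 and 5.66 and the PTX libraries at 17.3 and 30.5.

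MT1E (56625673 to 56627113, plus strand) encodes a further MT1 protein and was the second most abundant member in SW1736 wt. It reached 409 FPKM there, but only 0.679 after selection in SW1736-PTX, and was listed at 0 in 8505C wt and 8505C-PTX. MT1E made up 16.3% of the summed metallothionein FPKM of SW1736 wt but 0.0885% of that of SW1736-PTX. The fall in SW1736 was 602-fold, a log2 fold change of -9.04. Compared with 8505C wt instead, MT1E was above the limit in SW1736-PTX, because it was listed at 0 in the former. MT1L (56617461 to 56618818), which lies next to MT1E and is annotated as a transcribed unprocessed pseudogene, was at 70.3 FPKM in SW1736 wt and listed at 0 in the other 3 libraries. Outside SW1736 wt, neither gene exceeded 0.679 FPKM. Their annotated ends differ from those in the tables, so no reads were estimated and these values have no counting interval.

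MT1M (56632622 to 56633986) and MT1F (56657943 to 56659303), both protein-coding MT1 genes of 3 exons, showed the same presence in SW1736 wt at lower levels. MT1M was at 4.92 FPKM and MT1F at 1.40 FPKM there, about 96 and 29 reads, and both were listed at 0 in SW1736-PTX, 8505C wt and 8505C-PTX. MT1A (56638666 to 56640088), another MT1 gene, was at 1.15 FPKM in 8505C wt alone, about 20 reads, and listed at 0 in the other libraries. On transcripts of this length 3 reads correspond to between 0.122 and 0.174 FPKM, so a level below that would not have been detected. MT1G (56666735 to 56668065, the only member of the cluster on the minus strand) and MT1H (56669814 to 56671129) were listed at 0 in all libraries, the former being the gene described as methylated in thyroid carcinoma. The tables also hold MT1B, MT3, MT4, MT1HL1, MT1DP, MT1IP and MT1JP, and all 7 were listed at 0 in every library; MT3 is known from brain and MT4 from stratified epithelium.

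The MT1 genes resemble each other, so reads of one can be placed on another. Stretches of 75 bases, the read length, were compared between the annotated transcripts of each member and those of all other genes in GENCODE release 44. MT2A, MT1A, MT1F and MT1L shared 0 stretches with another gene. The share was 0.229% for MT1M, 1.42% for MT1E, 1.44% for MT1X, 5.72% for MT1G and 7.34% for MT1H. These shares pool the stretches of all annotated transcripts of a gene, 4 in MT1X. Within a single transcript, such as that of 404 bases for MT1X, the share can be larger and was not computed. MT1X shared 22 of its 1871 stretches with MT1G, which was itself at 0, and MT1E shared 11 with MT1G and 1 with MT1M. The annotated MT1L transcript is only 186 bases long and its ends differ from those in the tables by 240 bases in sum.

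MTF1 (chromosome 1, 37809567 to 37859620, minus strand, 11 exons, 7937 bases) had a level of 4.06 FPKM (SW1736 wt), 2.89 FPKM (SW1736-PTX), 3.11 FPKM (8505C wt) and 3.68 FPKM (8505C-PTX). All libraries lay within 1.41-fold of each other, whereas MT2A ranged 5.91-fold and MT1X 14.7-fold. The order of the libraries by MTF1 (SW1736 wt, 8505C-PTX, 8505C wt, SW1736-PTX) differed from that by MT2A only in the place of SW1736-PTX. MTF1 was 1.41-fold lower in SW1736-PTX than in SW1736 wt (1.31 to 1.51) and 1.18-fold higher in 8505C-PTX than in 8505C wt (1.09 to 1.28), log2 fold changes of -0.48 and 0.23 that were not called. Against 8505C wt, the ratio of SW1736-PTX was 0.929 (0.856 to 1.01).

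The 9 metallothioneins together, a sum in which reads exchanged between members still count, came to 2500 FPKM (SW1736 wt), 767 FPKM (SW1736-PTX), 351 FPKM (8505C wt) and 1180 FPKM (8505C-PTX). This was 0.57% of all TPM in SW1736 wt and 0.169%, 0.0803% and 0.263% in the other libraries, in the same order. The sum was 3.26-fold lower in SW1736-PTX than in its wt library and 3.36-fold higher in 8505C-PTX than in its own. The wt libraries differed 7.12-fold in the sum and the PTX libraries 1.54-fold. MT2A gave between 76.6% and 94.3% of the sum in each library. With 8505C wt as the control, the sum in SW1736-PTX was 2.19-fold higher.

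The cluster was then set beside its neighbours on chromosome 16. Within 1 Mb of the cluster, 36 gene names lay outside the family, of which 19 could be compared in SW1736 and 18 in 8505C. Their median log2 fold change was -0.37 in SW1736 and 0.24 in 8505C, against 0.01 and 0.11 over all genes compared. In SW1736, 2 neighbours were called higher and 1 lower, and in 8505C 4 and 0. Over all genes compared, 15.7% were called higher and 10.2% lower in SW1736, and 15% and 5.89% in 8505C. The nearest compared gene on each side of the cluster was not called in either line. BBS2, a component of the ciliary BBSome, had log2 fold changes of 1.22 and 1.23, and NUP93, a nuclear pore protein, of -0.72 and -1.26. HERPUD1, which acts in degradation of misfolded proteins of the endoplasmic reticulum, was called higher in both lines, rising to 137 FPKM from 17.8 in SW1736 and to 80.5 FPKM from 16.5 in 8505C. PLLP, which encodes plasmolipin, was also called higher in both, from 0.917 to 4.05 FPKM and from 0.102 to 4.70. In 8505C it passed the FPKM limit through the PTX library alone, so it could only be called higher there. The other calls were GNAO1, a G protein subunit, which fell from 2.28 to 0.181 FPKM in SW1736, and DOK4, a docking protein, and ADGRG1, an adhesion receptor, which rose in 8505C from 3.60 to 15.6 FPKM and from 2.07 to 7.88. GNAO1 passed the limit through SW1736 wt alone, so it could only be called lower. By position, MT1L, MT1E, MT1M and MT1F lay between MT2A, which fell in SW1736, and MT1X, which did not. MT1L, MT1M and MT1F passed the limit through SW1736 wt alone and had to fall, by a size that the pseudocount set. With a pseudocount of 1 FPKM, MT1F had a log2 fold change of -1.26, beside -1.58 for MT2A. MT1A, MT1G and MT1H lay in the same stretch and were listed at 0 in both SW1736 libraries. An order along the cluster was not tested. With 8505C wt as the control, 3 of 18 neighbours were called higher in SW1736-PTX and 0 lower, namely HERPUD1, PLLP and ADGRG1 with log2 fold changes of 3.05, 4.36 and 1.51, and GNAO1 was at or under 0.5 FPKM in both. PLLP again passed the limit through the PTX library alone. Over all genes, 15.1% were called higher and 5.23% lower with that control. Copy number was not measured.

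**Figure D4:**
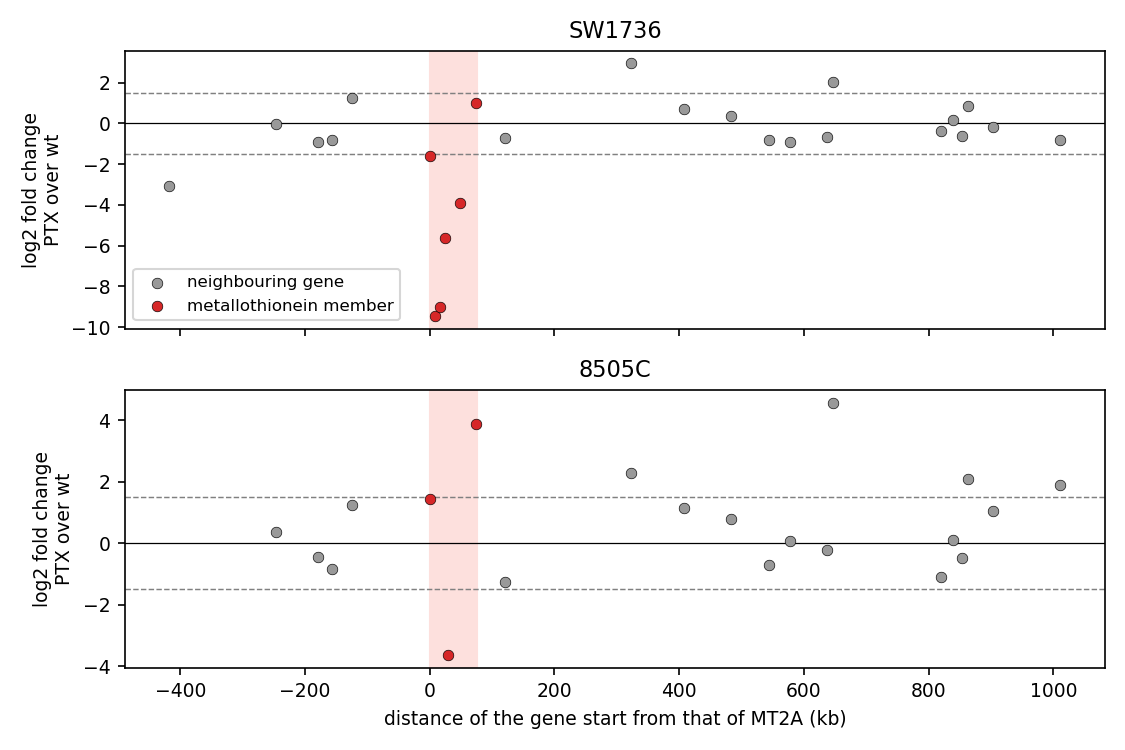
Log2 fold change of PTX over wt cells against the distance of each gene's start from that of MT2A, in kb, for SW1736 (top) and 8505C (bottom), with metallothionein members in red, neighbours in grey and the cluster shaded. Dashed lines mark 1.5 and -1.5, and genes at or under 0.5 FPKM in both libraries are not drawn. The 4 lowest points in SW1736 are MT1L, MT1E, MT1M and MT1F. Of these, MT1L, MT1M and MT1F were listed at 0 in SW1736-PTX, so the pseudocount sets their depth.

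Zinc enters the cytosol through SLC39 transporters and leaves it through SLC30 transporters, and SLC30A1, the exporter of the plasma membrane, is a further target of MTF1. SLC30A1 stood at 5.85 FPKM and 6.63 FPKM in the wt libraries of SW1736 and 8505C, and at 10.8 FPKM and 13.2 FPKM in their PTX libraries. Both PTX libraries were above both wt libraries, by 1.85- and 1.99-fold within a line, which was not called. Of 10 SLC30 genes, 7 were compared in each line, with SLC30A3 called higher in both (from 0 to 2.30 FPKM and from 0.0423 to 0.560) and 0 lower. SLC30A3 passed the FPKM limit only through the PTX library of each line, so it could be called in no other direction. All genes gave 15.7% higher and 10.2% lower in SW1736, and 15% and 5.89% in 8505C. The median log2 fold change of the SLC30 genes was 0.49 in SW1736 and 0.11 in 8505C, against 0.01 and 0.11 over all genes compared. With 8505C wt as the control of SW1736-PTX, SLC30A3 was the only call (log2 fold change 4.07), SLC30A1 had 0.70 and the median was -0.03. SLC30A3 again passed the limit through the PTX library alone. Over all genes that control gave 15.1% higher and 5.23% lower, with a median of 0.10.

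Of 14 SLC39 genes, 11 were compared in each line. In SW1736, SLC39A4 and SLC39A8 were called higher and 0 lower, and in 8505C none was called in either direction. Both genes passed the FPKM limit in SW1736 through the PTX library alone, so they could only be called higher. The shares over all genes were 15.7% higher and 10.2% lower in SW1736, and 15% and 5.89% in 8505C. SLC39A4, an importer of dietary zinc, had a listed value of 0 for SW1736 wt, beside 29.4 FPKM for SW1736-PTX, 16.6 FPKM for 8505C wt and 37.9 FPKM for 8505C-PTX. SLC39A8, which carries zinc and manganese, had 0.0857 FPKM in SW1736 wt, then 5.65, 8.68 and 3.44 FPKM. For both genes SW1736 wt stood apart from the other 3 libraries, and against 8505C wt neither was called in SW1736-PTX. The median of the SLC39 genes was 0.61 in SW1736 and -0.15 in 8505C, and 0.16 with the 8505C wt control, where 0 of 11 were called. Medians over all genes were 0.01, 0.11 and 0.10, and that control gave 15.1% higher and 5.23% lower.

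**Figure D5:**
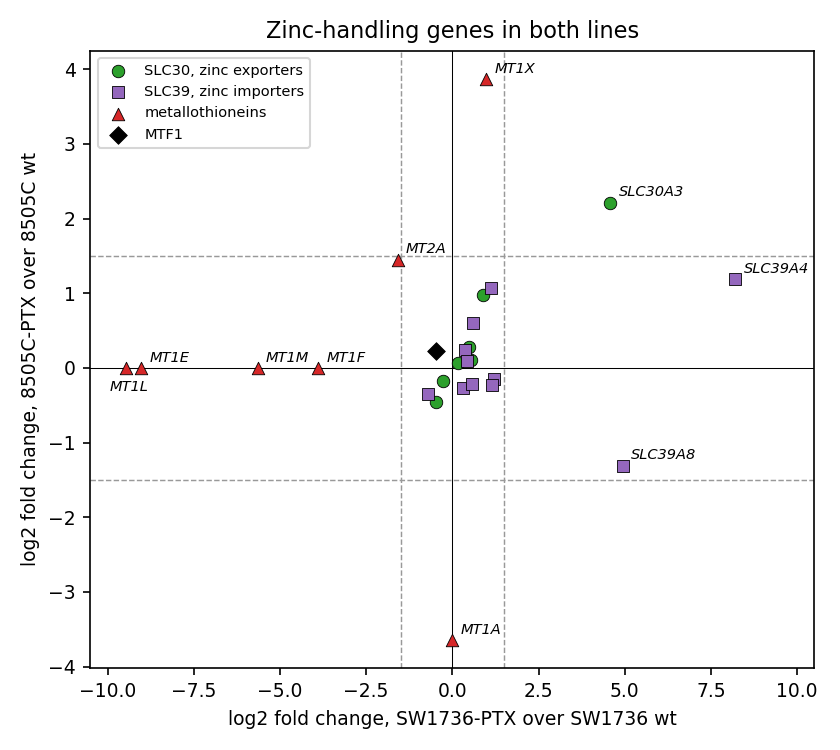
Log2 fold change in SW1736 (horizontal axis) and in 8505C (vertical axis) of metallothioneins, MTF1 and zinc transporters above 0.5 FPKM in at least 1 library of either pair, with dashed lines at 1.5 and -1.5. Metallothioneins on the horizontal zero line were listed at 0 in both 8505C libraries, and MT1A, on the vertical one, at 0 in both SW1736 libraries.

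Of 9 genes listed as MTF1 targets outside the family, 8 were compared in each line, with 2 called higher in SW1736, 1 in 8505C and 0 lower in either. For each list of this paragraph, the shares over all genes were 15.7% higher and 10.2% lower in SW1736. They were 15% and 5.89% in 8505C, and 15.1% and 5.23% in SW1736-PTX against 8505C wt. In the same order, the medians over all genes were 0.01, 0.11 and 0.10. NDRG1, a stress-response gene, rose to 404 FPKM from 4.09 in SW1736 and to 349 FPKM from 43.98 in 8505C. CSRP1, which encodes an actin-associated LIM protein, rose to 138 FPKM from 33.5 in SW1736. In 8505C it was at 270 FPKM in wt and 113 in PTX cells, which was not called. The medians of this list were 0.65 and -0.07. Against 8505C wt, NDRG1 was the only call in SW1736-PTX (log2 fold change 3.20), CSRP1 took the opposite sign at -0.96 and was not called, and the median was -0.36. Of 12 copper-handling genes, all compared, CCS, the copper chaperone of superoxide dismutase, was called higher in 8505C (14.9 to 49.1 FPKM) and 0 in SW1736. The medians of the copper genes were 0.16 and -0.09, and 0 were called in SW1736-PTX against 8505C wt (median 0.17). Of 12 genes of the metal and oxidative stress response, 0 were called in SW1736 and HSPA8, a constitutive chaperone, was called lower in 8505C (1270 to 440 FPKM). The medians of that list were -0.09 and -0.60, and against 8505C wt OSGIN1 alone was called higher in SW1736-PTX (median -0.05). HMOX1, which like the metallothioneins responds to heavy metals, was at 12.4 FPKM before and 12.9 after selection in SW1736, and at 5.63 and 8.87 FPKM in 8505C.

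Among 10 glucocorticoid-response genes, 9 were compared in each line and 4 were called higher and 1 lower in each. The shares over all genes were 15.7% higher and 10.2% lower in SW1736, and 15% and 5.89% in 8505C. PER1 and KLF9, both direct targets of the glucocorticoid receptor, were called higher in both lines. KLF9 had 8.73 FPKM and 6.29 FPKM in the wt libraries, against 30.7 and 37.6 in the PTX libraries of SW1736 and 8505C, so both PTX libraries were above both wt libraries, as for MT1X. FKBP5, another target of the receptor, fell to 6.31 FPKM from 31.1 in 8505C, and its values of 16.9 FPKM in wt and 9.47 in PTX cells of SW1736 were not called apart. DUSP1, a phosphatase of MAP kinases, rose to 277 FPKM from 10.2 in SW1736, where ERRFI1, an inhibitor of EGFR signalling, fell to 3.86 FPKM from 27.0. TSC22D3 rose from 0.823 to 25.9 FPKM in 8505C, and its change in SW1736, from 2.35 to 4.78, was not called. Among the genes named here, PER1 and TSC22D3 also had both PTX libraries above both wt libraries, and FKBP5 had both below. The medians of the list were 1.00 and 0.83, against 0.01 and 0.11 over all genes compared. Against 8505C wt the counts in SW1736-PTX were 3 higher (KLF9, TSC22D3 and CRISPLD2) and 2 lower (FKBP5 and ERRFI1), with a median of 0.46. CRISPLD2, there and among the calls in 8505C, passed the FPKM limit through the PTX library alone, so it could only be called higher. Over all genes that control gave 15.1% higher and 5.23% lower, with a median of 0.10. PER1, SGK1 and DUSP1, all called higher in SW1736, then had log2 fold changes of 1.30, -0.05 and 0.43 and were not called. Their calls in SW1736 thus rested on the SW1736 wt library. Of the 4 genes called higher in SW1736, only KLF9 was called with both controls.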

How the data were processed

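mRNA libraries of SW1736 and 8505C cells, wt and PTX, were analysed from 4 deposited tables, with groups taken from the sample labels. The study's methods state that adapter sequence was masked by Cutadapt and low-quality bases trimmed by ERNE, after which single-end reads of 75 bp were mapped to hg38 (STAR) and summarised per gene locus (StringTie); demultiplexing used bcl2fastq 2.20 per the labels, and the annotation is not given in the sources used here. The deposited tables give mean read coverage per base, not scaled for depth, FPKM as computed by the authors with StringTie, and TPM deposited by the authors as FPKM rescaled to an equal total. No counts are held, so no count model was used.

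FPKM rows of a repeated name were summed. Calls needed an FPKM above 0.5 in at least 1 library and a log2((PTX + 0.1)/(wt + 0.1)) beyond 1.5, which understates changes of low genes. A gene above the FPKM limit in only 1 library of a pair could be called in 1 direction only. Reads were estimated from FPKM, transcript length (GENCODE 44) and depth, and intervals are exact binomial at 95%, or normal on the log scale for the change of a ratio. Calls were checked on simulated data with counting error only, for genes above 0.5 FPKM in wt. That check does not cover genes absent from a library, short transcripts or the spread between cultures. With 1 library per condition no p-value was computed. Names in the text follow a rule (members, listed genes called in both lines, the largest call per list and line, called neighbours within 1 Mb, the 3 nearest patterns). SLC30A1, SLC39A8, CSRP1, HMOX1, OSGIN1, CRISPLD2, SGK1, BBS2 and NUP93 were named after their values were seen. Members and lists were chosen with earlier results of these data known. SELENOH and SELENOW were matched by older symbols, and MT1CP, MT1XP1, MT1P1, MT1P3 and MT2P1 were not analysed here. One marker is not reported here. Alternatives changed the pseudocount, unit, centring, FPKM limit, fold limit, repeated rows and control library. Python 3.11.15, NumPy 2.4.6, pandas 2.3.3, SciPy 1.17.1 and matplotlib 3.10.9 were used.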

Additional observations from a re-analysis of the deposited data

Results flagged for a closer look

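Results are listed here because the lines moved in opposite directions between wt and PTX cells, a difference that was not tested. The log2 fold change of MT2A was -1.583 in SW1736 and 1.449 in 8505C, and that of the summed metallothioneins -1.705 and 1.749. MTF1, the regulator, had -0.4771 and 0.2336, neither of them called. Beside these values, SW1736 wt was the only library with PAX8 and FOXE1 above 1 FPKM and the only one with NKX2-1 listed at 0; the part of that difference in the results above was not tested.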

How the results depend on the processing

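The choice that changed most was the control library. With 8505C wt in place of SW1736 wt, the log2 fold change of the summed metallothioneins in SW1736-PTX went from -1.70 to 1.13. That of MT2A went from -1.58 to 0.98, so both reversed. That of MT1E also changed sign, from -9.04 to 2.96, but the latter sets 0.679 FPKM against 0. Its sign was fixed by the FPKM limit and its size by the pseudocount. The same control gave 1 member called lower in place of 5 and 2 called higher in place of 0, an MTF1 change of -0.10, and a rise of MT1X relative to MT2A of 3.06-fold in place of 5.93-fold; that ratio and its alternatives were chosen after seeing the data. Requiring an FPKM above 0.5 in both libraries left 2 members called lower in SW1736 (MT1E and MT2A) and 0 in 8505C, where MT1A was also lost with a pseudocount of 1 FPKM. In SW1736, 4 members in place of 5 were called lower with that pseudocount, which lost MT1F, and with a log2 limit of 2, which lost MT2A. A log2 limit of 1 gave 2 members called higher in 8505C, the second being MT2A. Without MT2A, the member of highest mean FPKM, the sum changed by -2.25 in SW1736 and 3.79 in 8505C. The sum was -1.75 in SW1736 with TPM and 1.64 in 8505C when centred on the median of all genes, which lay at 0.11. Of 99 combinations of a single gene and an alternative, 61 did not change or moved by less than the counting error and 36 moved. The other 2, MT2A and MT1E with the 8505C wt control, reversed. Many of the 61 could not move. Members listed at 0 in both libraries of a pair stayed at 0 under every setting that kept the pair, except centring. The choice for repeated rows changed no result. MT1G and MT1H, listed at 0 in every library, also stayed at 0 with the 8505C wt control. Apart from these, the unmoved results were all of MT1X or MT2A. Genes listed at 0 in a library of the pair, and MT1E and MT1L, have no usable counting interval, so any difference counted as moved. No paired analysis was possible within a line because each condition has 1 library, and a fit over both lines with the line as a block was not run. Depth limits MT1A, MT1F and MT1M, which rest on fewer than 100 estimated reads.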

Other observations

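Patterns over the 4 libraries were compared by Euclidean distance on log2(FPKM + 0.1), centred per gene, among 14692 genes above 0.5 FPKM in at least 1 library; 4 points describe these libraries only. The genes nearest to MT2A were ZNF32-AS2, ADAMTS7 and TSPAN33 (distances 0.217, 0.219 and 0.260), and those nearest to the summed metallothioneins were MIR6871, ADAMTS7 and KCNJ12 (0.289, 0.358 and 0.366). These genes were low, so the pseudocount shapes their patterns. ZNF32-AS2 lay between 0.153 and 1.12 FPKM, ADAMTS7 between 0.0223 and 0.609, MIR6871 between 0.00547 and 0.725 and KCNJ12 between 0.206 and 1.44. TSPAN33, a tetraspanin, had 2.03 FPKM and 0.226 FPKM in the wt libraries of SW1736 and 8505C, and 0.530 and 0.665 in their PTX libraries. MTF1 was followed most closely by CPNE1, PIGM and ZFYVE9 (0.0281, 0.0426 and 0.0477), genes that, like MTF1, changed little. CPNE1, which encodes a calcium-dependent phospholipid-binding protein, had 183 FPKM and 139 FPKM in the wt libraries, and 131 and 168 in the PTX libraries.

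The pattern of MT1E was looked up after its values were seen. Its nearest gene was KRT19, which encodes a keratin of simple epithelia, with 266 FPKM in wt and 0.535 in PTX cells of SW1736 and 0 in both 8505C libraries, at a distance of 0.511. The next were PEG10 and COL1A2, at distances of 2.26 each. Of 1599 gene names above 50 FPKM in SW1736 wt, 9 (0.563%) were below 1 FPKM in each of the other libraries, limits also chosen after the values were seen, and MT1E and MT1L were among these 9. MT1X was nearest to LOC100507412, YPEL1 and GBP2 (0.169, 0.247 and 0.250), of which GBP2 is an interferon-induced GTPase. LOC100507412 and GBP2 were low, between 0.136 and 3.18 FPKM and between 0.0148 and 1.83 FPKM.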
